A study of Homo sapiens with 9 samples.

Results

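The comparison described here is that of MDA-MB-231 cells transfected with Dmimic against the same cells transfected with AllStar, a negative control small RNA. MDA-MB-231 is an established human breast cancer line of the triple-negative kind, which lacks the oestrogen and progesterone receptors and HER2 amplification. The comparison uses 6 of the 9 arrays of the series, chosen by their titles, namely 3 biological replicates with Dmimic and 3 with AllStar. The other 3 arrays are of cells given Qmimic. Every group was reverse transfected with Lipofectamine at 10 nM of its small RNA and harvested at 48 h, so the lipid and the transfection itself are common to all. The series is titled for miR-34a and for AXL, a receptor tyrosine kinase, but the labels give neither the sequence of Dmimic nor what its first letter stands for. Total RNA was hybridised to Affymetrix HG-U133 Plus 2.0 arrays, on which a gene is measured by 1 or more probe sets. All levels below are log2 signals as the authors deposited them, so a difference of 1 is a doubling.

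MicroRNAs guide Argonaute proteins to messenger RNAs, mainly by pairing between the seed near the 5′ end of the microRNA and the message, which lowers translation and shortens the life of the message. miR-34a is induced by the tumour suppressor p53 and is known for lowering cyclins, cyclin-dependent kinases and growth factor receptors. A synthetic mimic supplies such a small RNA from outside the cell.

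The natural human miRNA named by the series is printed here with others from the RefSeq table used here (GRCh38.p14) that share its seed, because this seed is how miR-34a is known to recognise its targets, some of which are counted below. Capitals mark the seed, bases 2 to 8. These are not stated to be the sequence of Dmimic.
hsa-miR-34a-5p: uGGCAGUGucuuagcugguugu
hsa-miR-449a: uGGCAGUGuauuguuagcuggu
hsa-miR-449b-5p: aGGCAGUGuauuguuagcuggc
The mature miR-34a-5p lies at chr1:9151735-9151756 on the minus strand, and miR-449a and miR-449b-5p lie on the minus strand of chromosome 5.

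One control array, AllStar replicate 3, was unlike the rest. Its interquartile range was 2.99 log2 units against 3.41 to 3.53, its 18S ribosomal RNA signal was 8.73 against 5.27 to 6.26, and its correlation with the others was at most 0.981. Against the mean of AllStar 1 and 2 its probe sets were higher at low levels and lower at high levels, with a median shift of 0.208 at levels from 4 to 6 and of -0.441 at levels from 8 to 10. The counts of calls and the medians of the main lists are therefore given with all 9 arrays and without this one. For single genes the fold and adjusted p are those without it unless all 9 arrays are named, and its value is printed beside the others for the main genes. VIM (vimentin, 13.68) and CD44 (11.92), both high in mesenchymal breast cancer cells, were strong in the mean of AllStar 1 and 2, and CDH1 (E-cadherin, 3.68), PTPRC (leukocytes, 3.78), COL3A1 (fibroblasts, 3.97) and CDH5 (endothelium, 3.54) were near the floor. KRT18 (12.50) and KRT19 (12.08), luminal keratins, were strong too. These are single members, and no marker list was uniform in level. Levels ran from 3.82 to 10.3 among leukocyte markers and from 3.41 to 7.27 among those of fibroblasts and endothelium. They ran from 3.75 to 13.7 among basal and mesenchymal markers and from 3.67 to 12.5 among luminal ones. None of the 11 luminal, 8 leukocyte and 12 fibroblast and endothelial markers measured was called, and of 11 basal and mesenchymal markers MET was called lower. With 1.27% of all genes called without AllStar 3, lists this short can hold no call without standing apart.

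With all 9 arrays, 2 genes passed the test, and both were higher with Dmimic. EDN1 encodes endothelin 1, a secreted vasoconstrictor peptide that also acts as a growth factor on tumour cells, and PDE1C encodes a calmodulin-dependent phosphodiesterase that breaks down cyclic nucleotides. The threshold for a call was 1.5-fold together with a limma p under 0.05 after Benjamini-Hochberg adjustment over 54613 probe sets. It took in 3 probe sets (0.00549%) or 2 of 19775 genes (0.0101%), with 0 called lower, while 7004 probe sets had an unadjusted p under 0.05. The 3 calls became 0 when AllStar 1, any single Qmimic array, Dmimic 1 or Dmimic 3 was left out, and 6 without AllStar 2.

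For EDN1 the main probe set read 9.04, 9.12 and 8.85 with AllStar 1 to 3 and 10.16, 10.20 and 10.33 with Dmimic 1 to 3. The groups were more than 1 log2 unit apart at their nearest arrays, with AllStar 3 the lowest of all. The difference was 1.23 (95% interval 1.02 to 1.44; limma adjusted p = 0.00768) with all 9 arrays and 1.15 (0.99 to 1.31; adjusted p = 0.000737) without AllStar 3. The second EDN1 probe set was also called, with differences of 1.10 and 1.04, and the third, a dimmer one at 6.12 in AllStar 1 and 2, differed by -0.27 and 0.02 and was not called. PDE1C read 8.68, 8.91 and 8.45 with AllStar and 9.79, 9.73 and 9.88 with Dmimic, again without overlap. Its difference was 1.12 (0.86 to 1.39; adjusted p = 0.0473) and, without AllStar 3, 1.01 (0.81 to 1.21; adjusted p = 0.00301). Permuted exactly over the 6 arrays (two-sided), each of the 3 called probe sets gave p = 0.1, the smallest that 3 arrays against 3 can give.

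Without AllStar 3, 472 probe sets (0.864%) were called, of which 235 (0.43%) were higher and 237 (0.434%) lower with Dmimic, and 9358 had an unadjusted p under 0.05. Counted by the brightest probe set of each gene, these were 251 of 19775 genes (1.27%), 123 higher (0.622%) and 128 lower (0.647%). Most changes were small: the median size was 1.68-fold, the largest 3.64-fold, and 213 of the 251 were under 2-fold. All-gene change was centred near 0, with a median of 0.01 and an interquartile range from -0.08 to 0.10. With all 9 arrays, which share most of their data with this fit, 87 of the 251 had an adjusted p under 0.1. For 205 of them the 3 Dmimic arrays lay wholly beyond all 3 AllStar arrays, an arrangement that 17.1% of all genes showed upward and 7.13% downward. The count of 472 probe sets rests on few arrays: it was 1 without AllStar 1, 15 without AllStar 2, 240 without Qmimic 2, 902 without Dmimic 2, 295 without Dmimic 3, and 13 when the Qmimic arrays were left out of the estimate of spread.

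**Figure D1:**
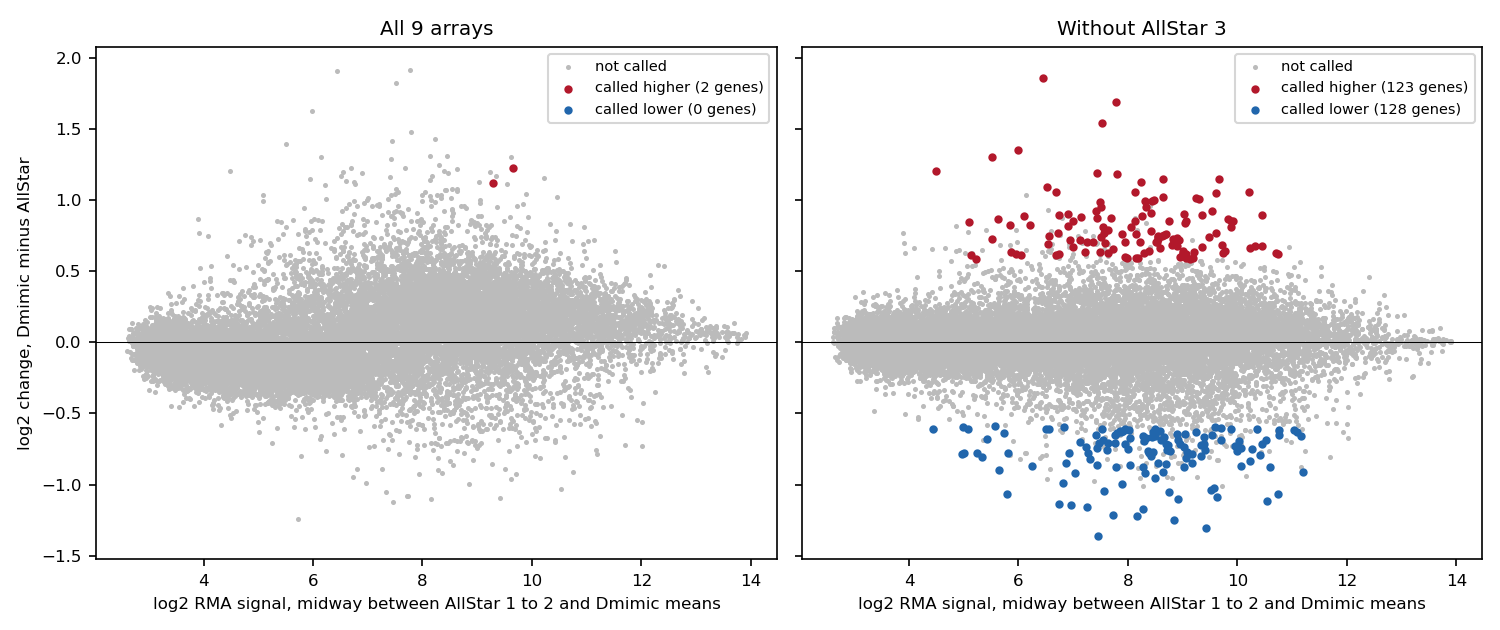
Change with Dmimic against AllStar (log2, vertical) by mean log2 signal (horizontal) for 1 probe set per gene, with all 9 arrays (left) and without AllStar replicate 3 (right). Called genes are coloured, 2 on the left and 123 higher and 128 lower on the right; on the left the cloud bends with level, its probe set median going from -0.09 at levels of 4 to 6 to 0.16 at levels of 8 to 10.

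The largest rises without AllStar 3 included genes of the cilium, the antenna or beating hair that is built on microtubules. OSCP1, an organic solute carrier partner, had the largest rise. It read 5.61, 5.41 and 5.35 with AllStar and 6.97, 7.17 and 7.98 with Dmimic, and its change was 3.64-fold (adjusted p = 0.0155). HHIP, which binds hedgehog ligands and dampens their signal, read 6.90, 6.97 and 6.26 with AllStar and 8.51, 8.24 and 9.12 with Dmimic (3.23-fold, adjusted p = 0.0103). DYNC2LI1, a light intermediate chain of the dynein that carries cargo back down the cilium, read 6.88, 6.62 and 5.92 with AllStar and 8.16, 7.95 and 8.77 with Dmimic (2.92-fold, adjusted p = 0.0138). In all 3 genes the Dmimic arrays lay above every AllStar array and Dmimic 3 was the highest.

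The other large rises were between 2.14-fold and 2.55-fold. DNAAF4, needed to assemble axonemal dyneins, rose 2.55-fold, FANK1, a testis-rich nuclear protein, 2.47-fold, and SPATA17, a protein of the motile cilium's central apparatus, 2.31-fold. SPATA17 started from 3.78, 3.98 and 3.89 with AllStar, near the floor of the arrays, where this scale understates a fold, so its fold and its rank are uncertain. PLEKHA7, a protein of adherens junctions, rose 2.28-fold. PAPPA, a secreted protease that frees insulin-like growth factors from their binding proteins, rose 2.28-fold, from 7.08, 7.33 and 6.32 to 8.34, 8.28 and 8.55. DPCD, linked to ciliary motility, rose 2.22-fold, LZTFL1, which regulates BBSome traffic, 2.19-fold, and LIAT1, a ligand of the arginyltransferase ATE1, 2.14-fold. EDN1 was also among these 12, at 2.22-fold. The other 11 had adjusted p from 0.0669 to 0.0893 with all 9 arrays and none was called there.

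The 12 largest falls ran from 2.13-fold to 2.57-fold. PKIA, an inhibitor of protein kinase A, read 8.15, 8.12 and 7.43 with AllStar and 6.87, 7.11 and 6.35 with Dmimic (2.57-fold lower, adjusted p = 0.0132). TPD52, a tumour protein amplified in breast cancer, read 10.13, 10.03 and 9.44 with AllStar and 9.03, 9.06 and 8.22 with Dmimic (2.47-fold lower, adjusted p = 0.0265). CCNE2, the cyclin E2 that opens S phase, read 9.48, 9.46 and 8.70 with AllStar and 8.45, 8.51 and 7.68 with Dmimic (2.38-fold lower, adjusted p = 0.0241). In all 3 genes AllStar 3 lay between the other AllStar arrays and the highest Dmimic array, so the groups were closer with it but did not overlap.

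TAF5, a subunit of the general transcription factor TFIID, fell 2.33-fold, and LEF1, the DNA-binding partner of beta-catenin, 2.32-fold. MCM10, which helps to start replication forks, fell 2.25-fold, and its AllStar 3 value of 8.05 was close to that of Dmimic 1 (7.99). GCH1, the first enzyme of tetrahydrobiopterin synthesis, fell 2.23-fold, GINS3, of the replicative helicase, 2.21-fold, and FAM111B, a relative of the fork protease FAM111A, 2.20-fold. FOSL1 (FRA-1), which pairs with JUN proteins to form AP-1, read 11.09, 11.10 and 10.85 with AllStar and 10.06, 10.23 and 9.66 with Dmimic, a fall of 2.17-fold (adjusted p = 0.0127). LRRC40 fell 2.15-fold and SLC29A1, the nucleoside transporter ENT1, 2.13-fold. These 12 had adjusted p from 0.069 to 0.241 with all 9 arrays and none was called there.

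**Figure D2:**
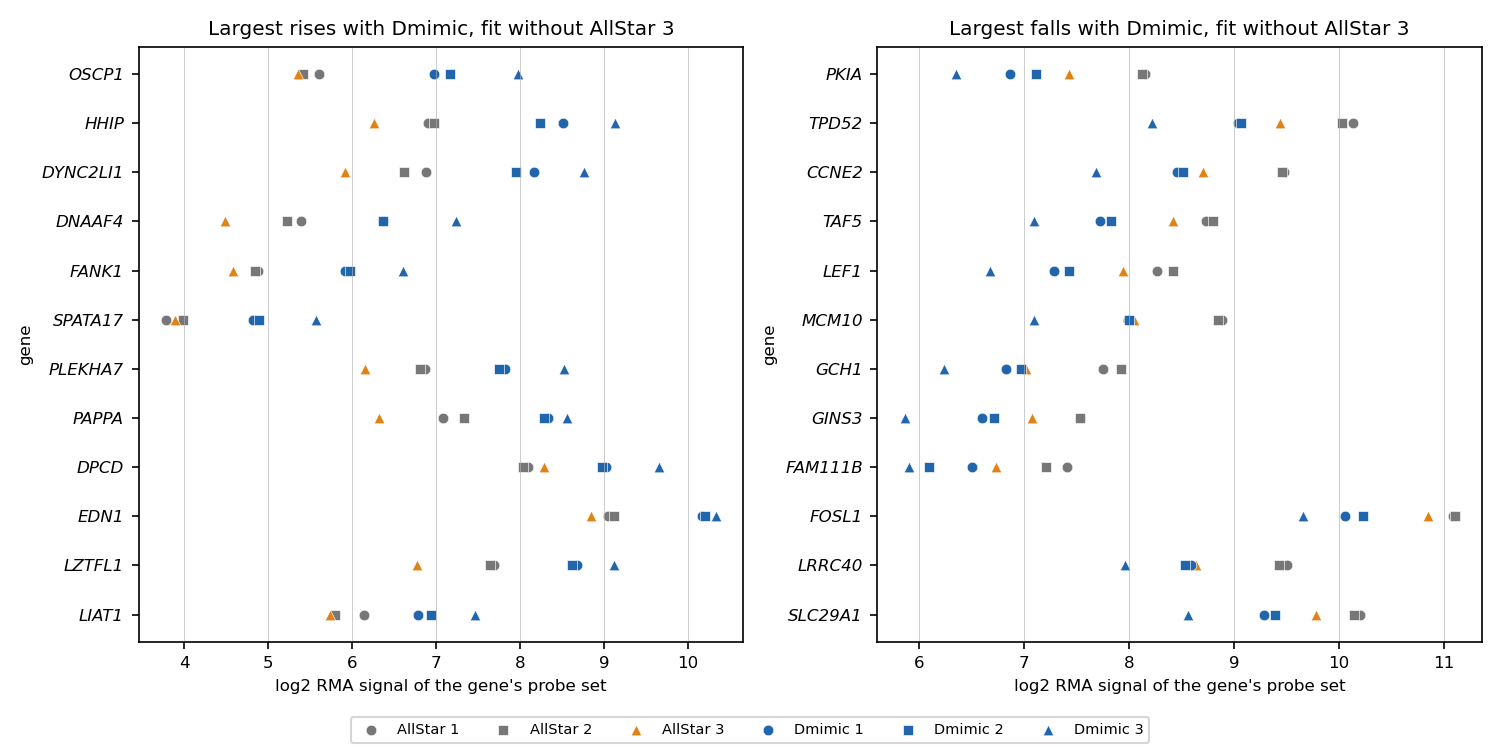
Log2 RMA signal (horizontal) of the 12 genes with the largest rise (left) and the 12 with the largest fall (right) without AllStar replicate 3, 1 point per array of AllStar and Dmimic. Dmimic 3 (blue triangle) is the outermost point of each row, and AllStar 3 (orange triangle), not in that fit, lies on the Dmimic side of the other AllStar arrays for all 12 falls.

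Among the called genes, the 3 Dmimic arrays did not move equally far. Dmimic 3 was the farthest from the mean of AllStar 1 and 2 in 240 of the 251 called genes, 117 of the higher and 123 of the lower. These genes were called with Dmimic 3 in the fit and the count was not made over all genes, so it describes the called genes only. The median distance of the called genes was 0.68 for Dmimic 1, 0.58 for Dmimic 2 and 1.03 for Dmimic 3. Its interquartile range of 3.45 and 18S signal of 5.85 were within the range of the arrays other than AllStar 3. Its GAPDH signal from the 3′ end was 0.252 above that from the 5′ end. That difference was 0.133 to 0.201 in those arrays and 0.264 in AllStar 3. For ACTB, measured in the same way, Dmimic 3 did not stand apart, at 0.306 against 0.234 to 0.415 in those arrays and 0.356 in AllStar 3. The best correlation of Dmimic 3 with another array was 0.997, the lowest after AllStar 3. Without Dmimic 3 and AllStar 3, 82 genes were higher and 76 lower, and 148 of these were among the 251. The part of these values in its distance was not tested.

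Genes of DNA replication were lower with Dmimic. The pathway loads the MCM helicase on origins, activates it through cyclin-dependent kinases and GINS, and copies DNA with polymerases. The list covers replication and entry into S phase, and of its 60 measured genes 15 were lower and 0 higher without AllStar 3, or 25% against 1.27% of all genes, and 0 were called with all 9 arrays. The median difference was -0.61 (-0.49 with all 9 arrays), against 0.01 for all genes, and 59 of 60 members were below 0. By array, the list's median was -0.50 in Dmimic 1, -0.39 in Dmimic 2 and -0.90 in Dmimic 3 (SD 0.27). AllStar 3 itself was 0.37 lower than the other AllStar arrays on this list, on the side of Dmimic, and the median was further from 0 without it. That shift is not particular to the list, whose median level was 8.46. Over all probe sets at levels from 8 to 10 the median shift of AllStar 3 was -0.441. Without Dmimic 3 as well, 13 members were lower.

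By role, the called helicase genes were MCM2 (2.06-fold lower), MCM3 (2.09-fold), MCM4 (1.64-fold), MCM5 (1.76-fold) and MCM7 (1.52-fold). MCM6 was lower by 0.55 on the log2 scale with an adjusted p of 0.0497 and stayed under 1.5-fold. Loading and activation were represented by CDC6, MCM10 and GINS3, and the polymerases by POLE2, the second subunit of polymerase epsilon, which was 1.69-fold lower. The called drivers of entry into S phase were CCNE2, CDK4 (1.84-fold), CDK6 and the phosphatase CDC25A (1.80-fold), which removes inhibitory phosphates from the kinases. CDK6 had the smallest adjusted p of the list (0.00493): it read 10.32, 10.33 and 9.70 with AllStar and 9.64, 9.67 and 9.47 with Dmimic. Its AllStar 3 value came within 0.1 of Dmimic, which made it 1.43-fold lower (adjusted p = 0.23) with all 9 arrays. FAM111A and FAM111B completed the count. CCND1 and E2F1, a cyclin and a transcription factor of the same step, differed by -0.28 and -0.29 and did not pass (adjusted p = 0.0855 and 0.105).

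Genes of the mitosis list had differences below 0 in all 54 measured members. On the brightest probe set of a gene, 0 were called in either fit. With 1.27% of all genes called without AllStar 3 and 0.0101% with all 9 arrays, a list of this size can hold no call. The mitosis list's median was -0.55 without AllStar 3 and -0.42 with it, and it was -0.35, -0.26 and -0.98 in Dmimic 1 to 3 (SD 0.39). The spread among the Dmimic arrays was thus larger than on the replication list, and AllStar 3 was 0.47 lower than the other AllStar arrays. The list's median level was 9.6, and the shift of AllStar 3 over all probe sets at levels from 8 to 10 was -0.441. FOXM1, the transcription factor of G2 and mitosis genes, had the largest difference of the list at -0.95 (adjusted p = 0.0933), and CDK1 and CCNB1, the kinase and cyclin that start mitosis, differed by -0.55 and -0.52 (adjusted p = 0.168 and 0.254); these 3 were named after their values were seen. With array weights, which gave AllStar 3 a weight of 0.0572, 11 mitotic and 27 replication genes were lower. AllStar 1 had a weight of 0.896 and AllStar 2 one of 5.17, so the control level in that fit rested mostly on AllStar 2. Of all 19775 genes, that fit called 157 higher and 211 lower. The list does not hold every gene of mitosis. Without AllStar 3, MASTL, which is not on it, was called lower on its only probe set (-0.78), and CCNF on 1 of 2 (-0.76). Both were named after their values were seen.

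Of 39 DNA repair genes, 4 were lower and 1 higher (12.8% against 1.27% of all genes). BRIP1, a helicase of the Fanconi pathway, fell 1.89-fold, RAD54L, of homologous recombination, 1.63-fold, and CHEK1, the checkpoint kinase of stalled forks, 1.56-fold; UNG, the uracil glycosylase, was the fourth. With AllStar 3 the groups overlapped for CHEK1, where that array (8.52) lay below Dmimic 1 and 2 (8.86 and 8.85), and for BRIP1, where it (8.04) lay below Dmimic 2 (8.16); with all 9 arrays their adjusted p were 0.484 and 0.284. FANCF, a subunit of the Fanconi core complex, rose 1.70-fold, from 6.21, 6.45 and 6.09 with AllStar to 7.08, 6.90 and 7.33 with Dmimic. None of 38 genes of nucleotide synthesis was called, which is not far from the 1.27% of all genes for a list of that size.

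**Figure D3:**
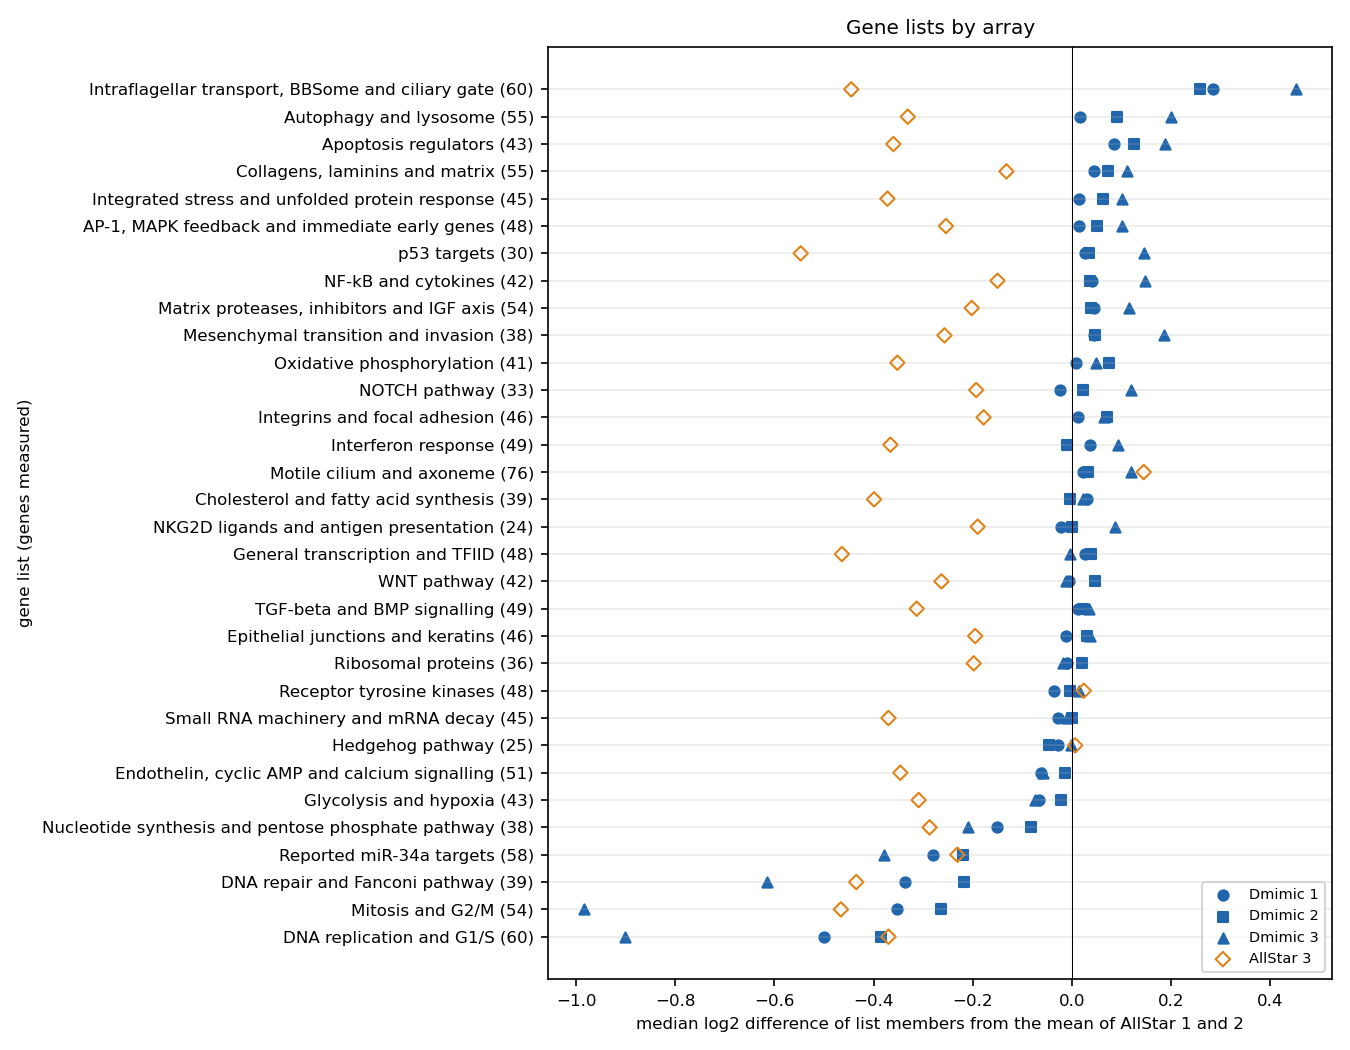
Median log2 difference of gene lists from the mean of AllStar 1 and 2, 1 point per Dmimic array and 1 for AllStar 3. Replication and mitosis lie below 0 in every Dmimic array and furthest in Dmimic 3, and AllStar 3 lies below 0 on all lists drawn except motile cilium, receptor tyrosine kinases and hedgehog.

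To set the group beside its promoters, the 250 bases before the start of each gene in RefSeq (GRCh38.p14) were searched on both strands for E2F sites (TTTGGCGC, TTTCCCGC, TTTGCCGC or TTTCGCGC), which occur at genes of S phase, for the CHR element (TTTGAA) and CCAAT, which occur at genes of mitosis, and for the conserved core GTTGCC of the X-box, which RFX factors bind at genes of cilia. An E2F site was present in 3.64% of 15384 promoters, in 10 of 98 called lower (10.2%), in 1 of 98 called higher (1.02%) and in 16 of 47 of the replication list (34%). A CHR was present in 10.6% of all promoters and in 24 of 48 of the mitosis list (50%), and CCAAT in 34.1% and 68.8%. These matches describe letters, not binding. The called replication genes whose promoter held an E2F site were 3 of 11, and 100 bases around it are printed with the site in capitals.
CDC25A (chr3:48188418-48188517, minus strand): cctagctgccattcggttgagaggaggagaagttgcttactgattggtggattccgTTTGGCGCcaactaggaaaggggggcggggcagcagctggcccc
MCM3 (chr6:52284857-52284956, minus strand): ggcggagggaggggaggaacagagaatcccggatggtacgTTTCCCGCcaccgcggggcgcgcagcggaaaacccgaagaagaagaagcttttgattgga
MCM7 (chr7:100101398-100101497, minus strand): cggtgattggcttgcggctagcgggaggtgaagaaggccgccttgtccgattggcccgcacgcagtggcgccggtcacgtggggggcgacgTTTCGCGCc
The site starts 44 bases before the start of CDC25A and 174 before that of MCM3. MCM7 has sites at 187 and 9 bases, and the nearer one is shown.

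Genes of the cilium's transport machinery were higher. Intraflagellar transport moves cargo along the axoneme, with kinesin 2 outward and dynein 2 inward, and the BBSome sorts membrane proteins. Of 60 members measured, 9 were higher and 0 lower without AllStar 3 (15% against 1.27%), with a median of 0.33 (0.49 with all 9 arrays) and 53 members above 0. The medians of Dmimic 1 to 3 were 0.29, 0.26 and 0.45 (SD 0.11), and that of AllStar 3 was -0.45, so that here the array lay on the side away from Dmimic. Without Dmimic 3, 7 members were higher.

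The motors were represented by KIF3A, a kinesin 2 subunit, and DYNC2LI1. KIF3A read 6.52, 6.63 and 6.09 with AllStar and 7.51, 7.28 and 7.50 with Dmimic (1.81-fold, adjusted p = 0.00625), and no AllStar array reached the Dmimic range. Among train proteins, IFT88 rose 1.88-fold, WDR19 (IFT144) 1.87-fold, CLUAP1 (IFT38) 1.73-fold, IFT22 1.67-fold and IFT81 1.65-fold. CLUAP1 read 7.33, 7.17 and 6.94 with AllStar and 7.95, 7.96 and 8.21 with Dmimic. BBS12, a chaperonin-like protein of BBSome assembly, rose 1.65-fold beside LZTFL1.

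The motile cilium list changed in another manner: 6 of 76 genes were higher and 0 lower (7.89%), but its median was 0.04 and 29 members were below 0. The 6 were OSCP1, DNAAF4, FANK1, SPATA17, DPCD and PIERCE1, which rose 1.85-fold. The list's median level was 5.56, against 7.70 for the transport list. FOXJ1 and RFX3, transcription factors of ciliated cells, differed by 0.16 and 0.04 and did not pass (adjusted p = 0.359 and 0.851). The X-box core was present in 10.6% of all promoters, in 19 of 55 of the transport list (34.5%), in 23 of 59 of the motile list (39%) and in 14 of 98 genes called higher (14.3%). It was present in 2 of 8 called transport genes and 2 of 4 called motile genes with a promoter in the table, whose windows are printed with the core, or its reverse complement GGCAAC, in capitals.
CLUAP1 (chr16:3500904-3501003, plus strand): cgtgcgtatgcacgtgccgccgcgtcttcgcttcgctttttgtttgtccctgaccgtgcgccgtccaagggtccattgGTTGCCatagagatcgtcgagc
DPCD (chr10:101588221-101588320, plus strand): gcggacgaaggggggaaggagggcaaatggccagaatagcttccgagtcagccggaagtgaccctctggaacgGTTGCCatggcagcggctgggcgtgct
DYNC2LI1 (chr2:43773939-43774038, plus strand): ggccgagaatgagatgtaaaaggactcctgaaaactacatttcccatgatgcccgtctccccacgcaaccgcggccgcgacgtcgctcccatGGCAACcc
PIERCE1 (chr9:135499870-135499969, minus strand): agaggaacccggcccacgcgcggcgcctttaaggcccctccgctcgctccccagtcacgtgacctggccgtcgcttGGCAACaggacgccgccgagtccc
The core starts 22 bases before the start of CLUAP1, 27 before DPCD, 8 before DYNC2LI1 and 24 before PIERCE1.

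**Figure D4:**
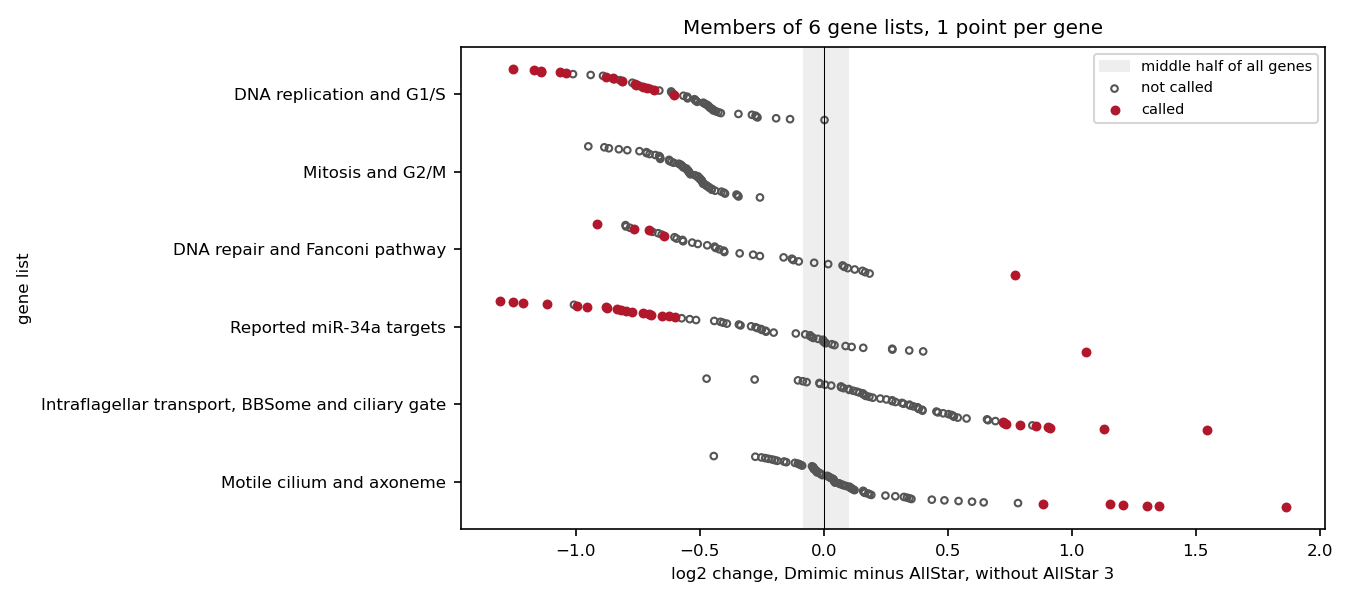
Log2 change with Dmimic without AllStar replicate 3 (horizontal) for each member of 6 gene lists, with called genes filled and the interquartile range of all genes shaded. All 54 mitotic and 59 of 60 replication genes lie below 0, and the called motile cilium genes lie apart from a list centred near 0.

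Of 58 reported targets of miR-34a measured, 18 were lower and 1 higher (32.8% called against 1.27%), with a median of -0.28 (-0.22 with all 9 arrays) and 46 of 58 below 0. The list was written from general knowledge of the literature with earlier results of these arrays known. The list's medians in Dmimic 1 to 3 were -0.28, -0.22 and -0.38 (SD 0.08), and AllStar 3 stood at -0.23. The SD on the replication list was 0.27, but around a larger median of -0.61, and Dmimic 3 was the farthest from 0 on both lists. Without Dmimic 3, 15 were lower. The seed shared by miR-34a and miR-449 is the one printed above.

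The 18 included receptors, kinases and cyclins. RRAS, a small GTPase, read 9.04, 8.92 and 8.61 with AllStar and 7.997, 8.23 and 7.85 with Dmimic (1.94-fold lower, adjusted p = 0.0083). MET, the receptor of hepatocyte growth factor, read 10.68, 10.63 and 10.18 and then 9.89, 10.06 and 9.50 (1.78-fold lower, adjusted p = 0.0219), and MAP2K1, the kinase MEK1, was 1.62-fold lower. In both RRAS and MET the lowest AllStar array lay above the highest Dmimic array. CDK4, CDK6, CCNE2 and E2F5 stood for the cell cycle, LEF1 and LGR4, a receptor of R-spondins, for WNT signalling, and HDAC1 (1.57-fold) and SIRT1 (1.63-fold) for deacetylases.

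FUT8, the enzyme that adds core fucose to glycans, read 9.78, 9.68 and 9.09 with AllStar and 8.97, 9.03 and 8.81 with Dmimic (1.74-fold lower, adjusted p = 0.00524). ULBP2, a ligand of the natural killer receptor NKG2D, fell 1.84-fold (adjusted p = 0.00837), from 8.77, 8.66 and 8.52 to 7.90, 7.95 and 7.66. TPD52, FOSL1, SYT1, ARHGAP1 and ACSL4 completed the 18. AXL, the receptor the series is about, was lower by 0.57 on the log2 scale without AllStar 3 (adjusted p = 0.0317), which is 1.49-fold and under the threshold, and by 0.73 with all 9 arrays (1.66-fold, adjusted p = 0.115). Its dimmer probe set read 8.996, 9.02 and 8.83 with AllStar and 8.16, 8.38 and 7.53 with Dmimic, a difference of -0.99 without AllStar 3 (1.98-fold lower, adjusted p = 0.0511) and -0.93 with it (adjusted p = 0.136). On both probe sets all Dmimic arrays lay below all AllStar arrays, and neither was called. MYC, an often cited target, differed by 0.0054. BCL2, another, differed by -0.0040 on its brightest probe set, but all 4 of its probe sets were below 0 and 1 was called lower, at -0.91.

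HMGA2, an architectural chromatin protein that is on the same list, was higher. Its brightest probe set read 9.67, 9.72 and 9.39 with AllStar and 10.61, 10.50 and 11.13 with Dmimic (2.08-fold, adjusted p = 0.0158). The other 8 HMGA2 probe sets did not follow it: their differences ran from -0.48 to 0.01, none was called, and their levels were lower. Its direction therefore rests on 1 probe set of 9.

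Of 30 p53 targets, PLK2, a polo-like kinase, and TP53INP1, a nuclear stress protein, were higher (1.54-fold and 1.58-fold; 6.67% of the list against 0.622% of all genes) and 0 were lower, and neither was called without Dmimic 3. CDKN1A (p21), the best known target, was 0.53 lower on the log2 scale (adjusted p = 0.0107), under 1.5-fold. In the endothelin, cyclic AMP and calcium list (51 measured, 7.84% called against 1.27%), EDN1 and PDE1C were higher, and PKIA and PRKAR2B, a regulatory subunit of protein kinase A, were lower. For PRKAR2B, AllStar 3 (6.85) lay below Dmimic 1 and 2 (7.30 and 7.20). The endothelin receptor EDNRB differed by -0.46 (adjusted p = 0.0432) and the converting enzyme ECE1 by 0.15 (adjusted p = 0.33); neither was called.

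Among 49 genes of TGF-beta and BMP signalling, 3 were higher and 1 lower (8.16% against 1.27%). NOG, a secreted BMP antagonist, read 9.44, 9.51 and 9.76 with AllStar and 10.27, 10.13 and 10.46 with Dmimic (1.76-fold, adjusted p = 0.00945). ID3, a target of BMP signals that blocks helix-loop-helix factors, read 7.51, 7.47 and 6.94 with AllStar and 6.61, 6.97 and 6.14 with Dmimic (1.89-fold lower, adjusted p = 0.034). For ID3 the groups overlapped, since AllStar 3 was below Dmimic 2. TGFB2, a ligand, rose 1.60-fold and SKIL, an inhibitor of SMAD proteins, 1.68-fold.

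In the AP-1 and MAPK list (48 measured, 10.4% called against 1.27% of all genes) EGR1, an immediate early transcription factor, was 1.69-fold higher, and FOSL1, RRAS, MAP2K1 and ARAF, a RAF kinase, were lower. JUN differed by 0.03. HHIP was the only call among 25 hedgehog genes (4%), and PTCH1 and GLI1, the receptor and the factor that the pathway itself induces, differed by 0.07 and 0.04. LEF1 and LGR4 were the calls among 42 WNT genes (4.76%), both lower, and for LGR4 the groups overlapped with AllStar 3 (6.87 against 7.08, 6.94 and 6.68 with Dmimic). Of 48 receptor tyrosine kinases ERBB3 was 1.68-fold higher and MET lower (4.17%). Of 54 proteases, inhibitors and genes of the insulin-like growth factor axis PAPPA was higher, and IGFBP3, a binding protein, 1.55-fold lower (3.7%).

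Metabolic and other lists held few calls. Of 39 lipid synthesis genes 3 were lower (7.69% against 1.27% of all genes): SGPP1, a sphingosine phosphate phosphatase (2.07-fold), LPGAT1, a lysophospholipid acyltransferase (1.54-fold), and ACSL4, an acyl-CoA ligase (1.54-fold). LPGAT1 depended on AllStar 3, with 8.79 and 8.89 in AllStar 1 and 2 and 7.66 in AllStar 3 against 8.18, 8.35 and 8.10 with Dmimic, so that the arrays overlapped when it was kept, as they did for ACSL4 (8.34 in AllStar 3 against 8.32, 8.46 and 8.05). NDRG1, a hypoxia gene, was 1.53-fold lower and the only call among 43 genes of glycolysis and hypoxia (2.33%). IFI44, an interferon-induced gene, was 1.61-fold lower and the only call among 49 interferon response genes (2.04%). TAF5 was the call among 48 genes of general transcription (2.08%). These shares are not far from the 1.27% of all genes, so the calls describe single genes, not their lists. For IFI44, AllStar 3 (6.94) was below every Dmimic array (7.05 to 7.44), and with all 9 arrays its adjusted p was 0.49. DCP2, the enzyme that removes the cap of messages, was 1.81-fold higher (9.44, 9.49 and 8.89 with AllStar; 10.29, 10.30 and 10.36 with Dmimic; adjusted p = 0.00245), and CNOT6, a deadenylase, 1.65-fold lower. DCP2 and CNOT6 were the calls among 45 genes of small RNA machinery and message decay (4.44%). On the brightest probe set of a gene, no member was called in the NOTCH, NF-kB, collagen, integrin, unfolded protein response, apoptosis, autophagy, ribosomal protein or oxidative phosphorylation lists. With 1.27% of all genes called, lists of this size can hold no call without standing apart from the rest. Among these lists BCL2 had 1 of 4 probe sets called lower, THBS1 had 3 of 7 called higher, and COX7B, a subunit of cytochrome oxidase, had 1 of 2 called higher (0.65). On the brightest probe sets the 41 oxidative phosphorylation genes lay between -0.04 and 0.21. In all, 30 of the 123 genes called higher and 45 of the 128 called lower were on a list by function. The lists, with the marker lists, hold 1408 of the 19775 genes. They were chosen with earlier results of these arrays known, so these counts do not measure how much of the change they cover.

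Probe sets of a gene mostly pointed the same way. Without AllStar 3, 343 genes had at least 1 called probe set, and 266 of these had several probe sets that name them alone. In 29 of the 266 every probe set was called, in 49 several but not all, and in 188 only 1. The other 531 probe sets that were not called, counted against a call of the same gene, had its sign in 433 cases (81.5%), while any pair of probe sets of a gene on the array had the same sign in 61.8%. None of them went the opposite way by 1.5-fold, and no gene was called in both directions.

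Agreement followed brightness. The uncalled probe sets with a mean level under 4 had the sign of the call in 43 of 71 cases, those from 4 to 6 in 125 of 171, those from 6 to 8 in 163 of 176, and those from 8 upward in 102 of 113. With only probe sets at a level of 6 or more the share was 91.6%, against 73.7% for all pairs. Over all levels, with the same calls but the signs of the fit to all 9 arrays, the share was 79.3%, against 64.7% for all pairs.

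The genes with at least 3 called probe sets show both patterns. HHIP was called on all 4, with differences from 0.66 to 1.69, and TXNIP, an inhibitor of thioredoxin, and HMGN4, a nucleosome-binding protein, were lower on all 3 of theirs. PAPPA was called on 5 of 11, from 0.64 to 1.28, and its other 6, all at or below a level near 6, lay between -0.10 and 0.17. TPD52 was lower on 3 of 5 (-1.31, -1.48 and -1.48), and its other 2 probe sets, at 4.86 and 3.92 in AllStar 1 and 2, were -0.46 and -0.57. MET was lower on 3 of 4 and the fourth differed by -0.77 (adjusted p = 0.0744). TGFB2 was higher on 3 of 5, PDE1C on 3 of 6 and CPEB4, a regulator of poly(A) tails, on 3 of 4, and FOXN3, a forkhead repressor, was lower on 3 of 8.

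THBS1, thrombospondin 1, a matrix protein that binds TGF-beta, was higher on 3 of 7 probe sets although its brightest one, at 0.53 (adjusted p = 0.0238), stayed under 1.5-fold. The largest difference was on a dimmer probe set, which read 6.27, 6.36 and 6.17 with AllStar and 7.82, 7.44 and 8.43 with Dmimic (1.59, adjusted p = 0.0126). Choosing 1 probe set per gene therefore left THBS1 out of the 251 genes.

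**Figure D5:**
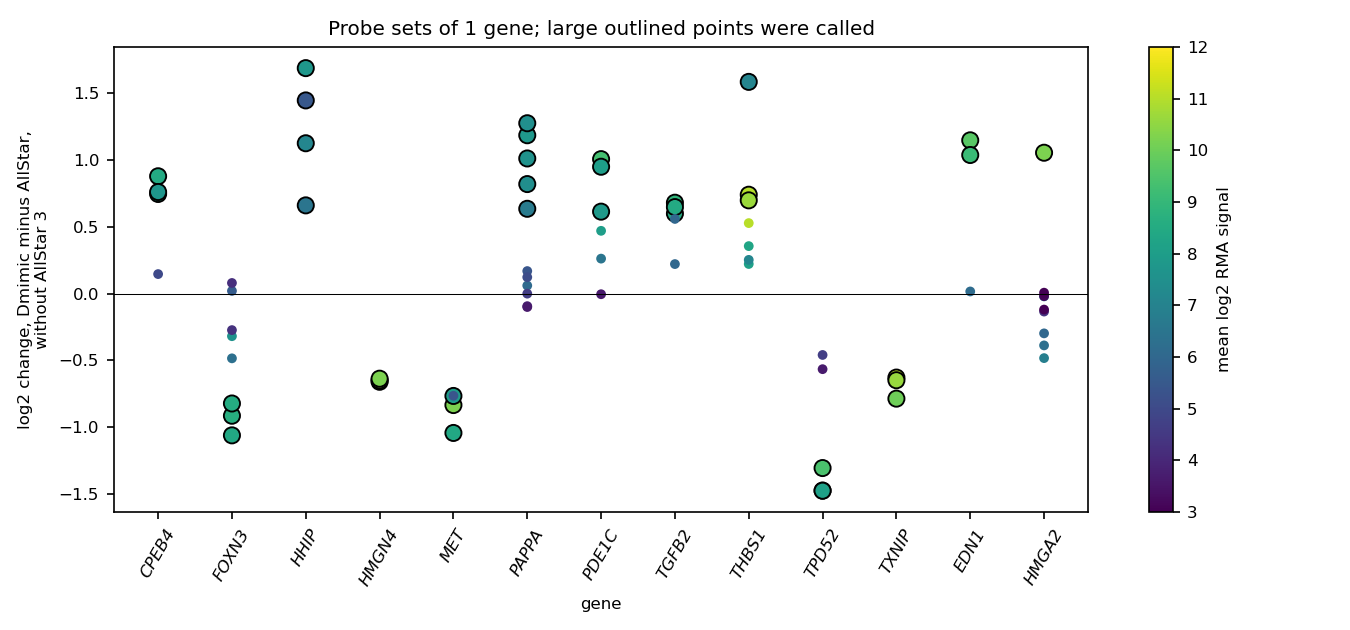
Log2 change with Dmimic without AllStar replicate 3 (vertical) for every probe set of the genes with at least 3 called probe sets and of HMGA2 and EDN1, with called ones large and outlined and the colour giving the mean log2 signal. HHIP, TXNIP and HMGN4 were called on all of theirs, whereas HMGA2 has 1 called probe set at 1.06 and 8 between -0.48 and 0.01.

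Dmimic was then compared with Qmimic directly, since both comparisons against AllStar share the AllStar arrays. With all 9 arrays 0 probe sets were called (limma; smallest adjusted p = 0.0654, 1318 with an unadjusted p under 0.05). Without AllStar 3, which enters this difference only through the estimate of spread, 44 were called (0.0806%), 40 higher with Dmimic and 4 lower, and 6044 had an unadjusted p under 0.05. Only 3 of the 44 were also called against AllStar.

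EDN1 was 1 of these 3. It read 9.46, 9.50 and 9.50 with Qmimic, all below the lowest Dmimic array, and the difference between the mimics was 0.74 (95% interval 0.60 to 0.89; adjusted p = 0.00216). THBS1 was 0.66 higher on 1 probe set (adjusted p = 0.0359), and AGR2, a secretory disulfide isomerase, was 0.76 lower (adjusted p = 0.0359), with 6.39, 6.68 and 6.23 in Dmimic, 7.36, 7.19 and 7.04 in Qmimic and 7.24, 7.32 and 6.61 in AllStar. PDE1C was 0.49 higher than with Qmimic (0.32 to 0.67; adjusted p = 0.044), under 1.5-fold.

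For some of the other calls the Dmimic arrays were close to AllStar. RRAGD, a GTPase that signals amino acids to mTOR, read 6.92, 6.92 and 7.03 with Dmimic, 7.11, 7.19 and 6.30 with AllStar and 5.13, 5.55 and 5.58 with Qmimic, a difference between the mimics of 1.54 (adjusted p = 0.000801). MAPK9, the kinase JNK2, and GSK3B, a kinase of glycogen and WNT signalling, differed by 0.93 and 0.84 between the mimics and by -0.06 and 0.01 between Dmimic and AllStar. FST, follistatin, which binds activin, was 0.93 higher than with Qmimic and 0.44 higher than with AllStar, the latter without a call. These genes were named after their values were seen. Among the 24 largest changes against AllStar only EDN1 was called between the mimics. SPATA17 differed by 0.71 (0.28 to 1.14; adjusted p = 0.223), HHIP by 0.67 (0.24 to 1.10; adjusted p = 0.251) and FANK1 by 0.58 (0.09 to 1.08; adjusted p = 0.375), whose intervals lay above 0. OSCP1 differed by 0.38 (-0.16 to 0.93), DYNC2LI1 by 0.23 (-0.20 to 0.67), PAPPA by 0.06 (-0.17 to 0.28) and FOSL1 by 0.02 (-0.28 to 0.33). The replication list's median difference between the mimics was -0.17, with 52 of 60 members lower with Dmimic and 0 called. Against AllStar 1 and 2, the list's median was -0.44 with Qmimic and -0.50, -0.39 and -0.90 in Dmimic 1 to 3. Without Dmimic 3 the Dmimic median was -0.46, close to that of Qmimic, so a larger fall with Dmimic is not shown for this list.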

How the data were processed

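Per the series text and the submitters' processing notes, the authors normalised the arrays with RMA, which corrects background, equalises distributions and summarises a probe set's probes, and tested them with limma; no versions are given in the sources used here. The values used are the log2 signals the authors deposited for 54675 probe sets. The 62 control probe sets were set aside and 54613 tested with no filter on level. Of these, 41091 name 1 gene, 1801 several and 11721 none in the platform annotation. Each gene was read from its brightest probe set by the mean of 9 arrays. Probe sets that share sequence with related genes can mix them.

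In limma 3.58.1 (R 4.3.3) 1 model of 3 groups was fitted with lmFit and eBayes to all 9 arrays and again without AllStar replicate 3, which leaves 2 AllStar arrays whose spread is pooled with that of the mimics. All adjusted p values are Benjamini-Hochberg over the 54613. A call needs an adjusted p under 0.05 and 1.5-fold. The median half-width of the 95% interval was 0.264 with all 9 arrays and 0.186 without AllStar 3; precision is limited by the number of arrays. The code was tested on simulated data.

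Members and lists (32 by function and 4 of cell type markers, 1408 genes measured) were chosen with earlier results of these data known, from general knowledge. Genes were named by rule: all called with all 9 arrays, the 12 largest rises and falls without AllStar 3 whose Dmimic arrays lay beyond AllStar 1 and 2, up to 3 called members per list and direction by adjusted p, genes with at least 3 called probe sets, and AXL. Other called members are named to complete a count, and uncalled or mimic-specific genes beyond these were named after their values were seen.

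Replicate numbers are not said to mark a shared day, so the main model did not pair the arrays. Over 9 same-numbered pairs the correlation of deviations from group means ran from -0.275 to 0.219. Differently numbered pairs were not set beside them, so these values cannot decide whether arrays shared a day or batch. Alternatives were a replicate block, only the arrays compared, array weights, repeated quantile normalisation, median centring, a level filter, a trend, other thresholds and leaving out each array. Weights and the pair of Dmimic 3 and AllStar 3 left out together were added after the data were seen for the lists. Promoter and miRNA sequences are from RefSeq (GRCh38.p14).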

Additional observations from a re-analysis of the deposited data

How the results depend on the processing

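With all 9 arrays, the 3 probe sets called became 0 with a replicate block, 0 with only the arrays compared, 696 (319 higher, 377 lower) with array weights, 103 (58 and 45) after repeated quantile normalisation, 6 with the dimmer probe sets left out, 16 with an intensity trend and 0 at a log2 change of at least 1.5, and ran from 0 to 472 when single arrays were left out. Without AllStar 3, the 472 became 17 (14 and 3) with a replicate block, 13 with only the arrays compared, 6 at a log2 change of at least 1.5 and 1261 by adjusted p alone, and ran from 1 to 902 over single arrays; with median centring they were 490, 273 higher and 217 lower against 235 and 237. Dmimic against Qmimic, 0 with all 9 arrays, gave 34 with only the arrays compared, 58 with array weights, 15 after quantile normalisation, 0 with a replicate block, and 0 to 44 over single arrays. Agreement of probe sets went from 81.5% to 91.6% at a level of 6 or more and to 77.6% without cross-matching probe set types. The causes were not tested, except that another fold threshold acts by construction. Leaving out a single array raised some counts and lowered others. No named gene's difference changed sign under these alternatives, but the balance of higher and lower calls did turn, as the splits above show. For the named genes, 362 values kept their side of the threshold, 318 lost a call and 2 gained one. For the lists' medians, 384 values moved by less than the SD of the Dmimic arrays and 48 by more. At levels near the floor a small fold is an underestimate on this scale.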
